A study of Homo sapiens with 16 samples.

Results

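The genes described here were 31 established transcriptional targets of the tumour suppressor p53, chosen by symbol from the 56969 genes of a normalized count table, and each symbol matched 1 Ensembl gene. HepG2, an established human liver cancer cell line, was reverse transfected with control siRNA in 8 libraries or with HCF-1 siRNA in 8 libraries. HCF-1, the product of HCFC1, is a chromatin-bound cofactor of transcription factors. Cells were transfected again 2 days after the first round and lysed for RNA 2 days later. No other agent separated the groups, both went through the same transfections, and the labels call the 8 libraries of each group biological replicates of 1 cell line.

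p53 is a transcription factor that MDM2 and MDM4 hold in check in unstressed cells. When it is stabilised, by DNA damage for example, it binds pairs of a short sequence element near its targets and raises genes that stop the cell cycle, repair DNA, open the death receptor and mitochondrial routes to apoptosis, adjust metabolism, and switch p53 itself off again. The cyclin-dependent kinase inhibitor p21, encoded by CDKN1A, is the best known arrest target, and through p21 and the DREAM complex p53 indirectly lowers many cell-cycle genes.

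After HCF-1 siRNA, 15 of the 31 targets rose, 2 fell and 14 did not pass the test. Across all 16081 genes tested, 18.2% rose and 18.3% fell, 36.6% in either direction. The arrest gene ZMAT3, the bypass polymerase gene POLH and the stress gene SESN1 rose at least 1.5-fold, while CDKN1A did not pass. A gene was called where the Benjamini-Hochberg adjusted p from limma was under 0.05 over all genes with a mean of 10 normalized counts or more, and all 31 targets were above that level. Fold changes are HCF-1 siRNA over control siRNA on the log2(normalized count + 1) scale. The median log2 fold change of the targets was 0.23, beside 0.01 over all genes tested, and 24 of the 31 were positive, beside 50.8% of all genes. Their own mean levels were all at least 70.3 normalized counts, and among the 12124 genes at or above that level 20.3% rose and 21.8% fell. In bulk RNA, a change in the make-up of the culture and a change in the RNA per cell cannot be told apart.

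HCFC1 averaged 3682 normalized counts in the HCF-1 siRNA libraries against 5631 in the control libraries, 65.4% of control. The knockdown was thus partial at the RNA level, and these counts do not show HCF-1 protein. Recovered reads per library numbered 21030830 to 32820459 in control and 25098840 to 43186890 in HCF-1 siRNA libraries. With reads thinned to the smallest library, 16 targets rose and 2 fell. Of 8 hepatocyte markers, 6 rose (ALB, AFP, APOB, TF, SERPINA1 and HNF4A), and their summed level was 724071 to 789765 normalized counts in the control group and 861893 to 1029874 in the other. The part of this shift in the target values was not tested. The blood markers CD3E and HBB were at 0 in all 16 libraries, the 4 blood markers together reached at most 26.5 normalized counts, and the 4 fibroblast markers reached 337 to 591 in the control group and 381 to 906 in the other, nearly all of it PDGFRB. The 2 endothelial markers found, VWF and CDH5, together reached 82.0 to 159.9 and 94.6 to 157.6 in these groups.

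The median shift of these genes was smallest in HCF-1 siRNA replicate 8, a library picked out after the values were seen. Single targets went both ways there. XPC, SPATA18 and PPM1D were the highest of their group, while CDKN1A, AEN and CYFIP2 were among those at the lowest. The median deviation of the 31 targets from their control means was 0.01 on the log2 scale in that library and 0.14 to 0.29 in the other 7. Its HCFC1 level, 3558 normalized counts, lay inside the range of its group, which was 3112 to 4171. Without it, 18 targets rose and the same number as before, 2, fell. The 3 added were CDKN1A, AEN and TNFRSF10A, and their values with and without the library are given with each gene.

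Promoter sequence was available from RefSeq (GRCh38.p14, 250 bases before to 50 after each annotated start) for 25 of the 31 targets. The p53 half-site consensus, searched by that name on both strands, occurred in 7 of these 25 genes (28%) and in 8.06% of 27305 genes with such a window. A full site, 2 such half-sites 0 to 13 bases apart, occurred in DDB2 alone among the targets, and in 0.0366% of all genes. No mismatch to the consensus was allowed. A second half-site with a mismatch beside a marked one was therefore not counted, and such full sites were not searched for. The 30-base stretches around these elements are shown because p53 binds pairs of this element. Binding was not measured here, and a single half-site is a match of letters only. Capitals mark the half-site, and in DDB2 both half-sites, on the strand of the gene.
AEN: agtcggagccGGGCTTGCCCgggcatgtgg
DDB2: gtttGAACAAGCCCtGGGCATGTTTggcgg
EI24: cgtgcggcccGGGCATGCCCagtgcgggcg
FAS: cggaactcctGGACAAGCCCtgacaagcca
FDXR: gggcaggagcGGGCTTGCCCtgcggagcag
PLK2: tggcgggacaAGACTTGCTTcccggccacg
SESN1: attgtcgtctGGACAAGTCTccacaagtca

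With the first transcribed base as position 0, the half-sites began at -34 in AEN (chr15:88621296-88621325, plus strand), -122 in FAS (chr10:88991299-88991328, plus strand), -10 in EI24 (chr11:125569457-125569486, plus strand) and 5 in DDB2 (chr11:47214975-47215004, plus strand), the last inside the transcribed region. On the minus strand they began at -11 in FDXR (chr17:74872986-74873015), -132 in PLK2 (chr5:58460199-58460228) and -49 in SESN1 (chr6:109009018-109009047). The coordinates in parentheses are those of the 30-base stretches shown, not of the half-sites alone. Of the 7 genes with a half-site in the window, 3 rose (FAS, PLK2 and SESN1), 1 fell (EI24) and 3 did not pass (AEN, DDB2 and FDXR). Of the 18 without one, 10 rose, 1 fell and 7 did not pass, and no test was made of this difference. Many p53 sites are known to lie in introns or farther upstream, outside such windows.

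SESN1 is the half-site gene with the largest change, so its window is shown in full up to the start. It is 1 of 3 SESN1 windows in the RefSeq table, the 250 bases lie at chr6:109008989-109009238 on the minus strand, and none of them falls in an annotated exon of GENCODE 29. Capitals again mark the half-site.
SESN1: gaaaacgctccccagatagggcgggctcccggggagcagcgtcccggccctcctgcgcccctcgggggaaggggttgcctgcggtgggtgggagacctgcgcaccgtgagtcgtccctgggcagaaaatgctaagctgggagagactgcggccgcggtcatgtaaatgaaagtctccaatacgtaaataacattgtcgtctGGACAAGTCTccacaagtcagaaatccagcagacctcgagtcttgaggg

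Motifs of other factors were searched in the same windows. The ZNF143 and THAP11 motif, searched as ACTACA, 2 bases of any kind and TCCC because both factors are known partners of HCF-1, occurred in EI24 alone among the 25 genes (4%), beside 2.15% of all genes. It is shown because EI24 was the target with the largest decrease, with the motif in capitals and starting at position -128. The 30-base stretch shown lies at chr11:125569340-125569369 on the plus strand.
EI24: cccggactgACTACATTTCCCagtctccgt

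The ETS motif CCGGAAG occurred in AEN and FDXR (8%, beside 12.2% of all genes). The first E2F motif, TTCCCGC, occurred in AEN, CYFIP2, DDB2, PLK2 and XPC (20%, beside 7.82%), and the second, TTGGCGC, in MDM2 (4%, beside 3.66%). The CHR element of DREAM-bound genes, TTTGAA, occurred in DDB2, FAS and ZMAT3 (12%, beside 18.2%), and in DDB2 its letters overlap the first half-site. Each motif was searched on both strands, and a match describes letters in the window only.

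The 7 arrest genes all had positive fold changes, 5 of them rose, and their median log2 fold change was 0.35. For this and every other role the background is the share over all genes tested, 18.2% higher and 18.3% lower. No role was tested against it. ZMAT3, a zinc finger RNA-binding protein that acts in p53-dependent growth suppression, had the largest change of any target that passed. Its normalized counts were 1074 at the lowest, 1175 at the median and 1245 at the highest over the control libraries, and 1862, 1983 and 2173 over the HCF-1 siRNA libraries. All 8 HCF-1 siRNA libraries thus lay above all 8 control libraries, which held for 5 of the 31 targets and 4.59% of all genes tested. The means were 1175 ± 64.0 and 2011 ± 121 (SD, n = 8 each), a log2 fold change of 0.77 ± 0.05 (SE; limma adjusted p = 3.74e-09).

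BTG2, an antiproliferative regulator of mRNA deadenylation, was a second arrest gene without overlap. Control libraries held 921, 969 and 1019 normalized counts at the lowest, median and highest, and HCF-1 siRNA libraries 1239.8, 1372 and 1514. Every library of the second group was higher than every library of the first, with a narrow spread in both. This gave a log2 fold change of 0.50 ± 0.04 (SE; limma adjusted p = 2.53e-07).

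The polo-like kinase genes PLK2 and PLK3, which act in stress checkpoints, also rose, PLK2 by 0.49 ± 0.12 (log2, SE; limma adjusted p = 0.00424) and PLK3 by 0.35 ± 0.13 (limma adjusted p = 0.0470). The 2 groups overlapped for both. PLK3 is a weakly expressed gene, at 201 ± 28.4 normalized counts in control and 261 ± 57.9 in HCF-1 siRNA libraries (SD, n = 8 each). Its call was lost in 14 of 26 alternative settings, among them those without control replicate 1, 2, 4, 6, 7 or 8 and those without HCF-1 siRNA replicate 1, 2, 3, 5 or 7, with adjusted p up to 0.0948. GADD45A, a stress sensor that binds PCNA and cyclin-dependent kinase complexes, rose by 0.20 ± 0.06 (limma adjusted p = 0.00858).

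CDKN1A, by contrast, did not pass the test. It held 3491, 4019 and 4609 normalized counts at the lowest, median and highest in control, and 3538, 4476 and 4913 after HCF-1 siRNA. The groups covered nearly the same range, and the lowest HCF-1 siRNA value was that of replicate 8. The log2 fold change was 0.12 with a 95% interval, not adjusted for the number of genes, of -0.02 to 0.26 (limma adjusted p = 0.162), and 0.17 (adjusted p = 0.0314) without replicate 8. Among the 26 settings this was the only one in which CDKN1A passed. CCNG1, the gene of cyclin G1, had a log2 fold change of 0.02 with an interval of -0.09 to 0.14 (limma adjusted p = 0.769).

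Relative to CDKN1A, ZMAT3 shifted in every library. The log2 ratio of ZMAT3 to CDKN1A was -1.78 ± 0.17 in control and -1.13 ± 0.22 in HCF-1 siRNA libraries (SD, n = 8 each), and the groups did not overlap. This ratio and 3 others given with later genes were picked after the values were seen and carry no test.

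**Figure D1:**
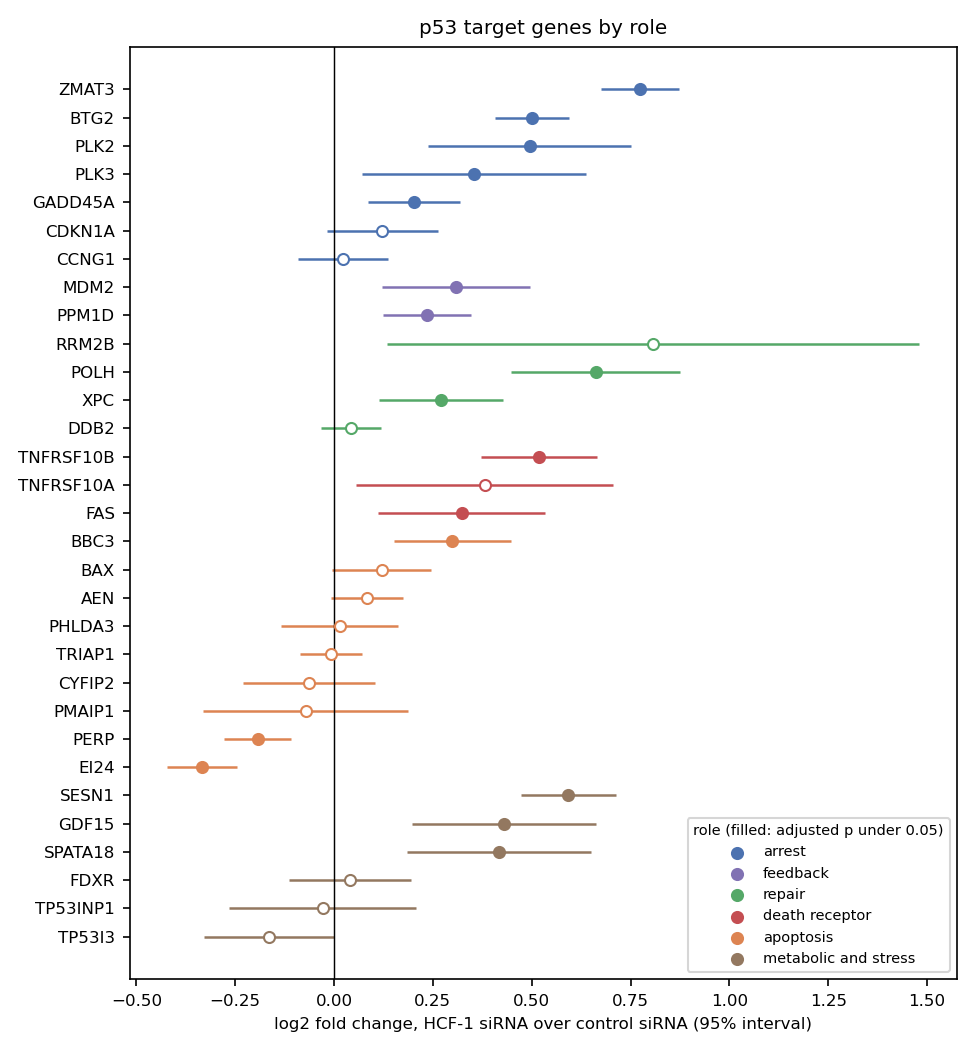
Log2 fold change of each of the 31 p53 target genes, HCF-1 siRNA over control siRNA (horizontal axis), grouped and coloured by role, with bars for the 95% interval and filled points for limma adjusted p under 0.05. Arrest, feedback, repair and death receptor genes all lie to the right of 0, while the 9 apoptosis genes lie on both sides, from 0.30 for BBC3 to -0.33 for EI24.

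Both feedback genes rose. MDM2, the ubiquitin ligase that degrades p53, held 3872, 4457 and 6019 normalized counts at the lowest, median and highest in control and 4837, 5821 and 6877 after HCF-1 siRNA. The ranges overlapped, with the highest control library above the HCF-1 siRNA median. MDM2 rose by 0.31 ± 0.09 on the log2 scale (SE; limma adjusted p = 0.0118). PPM1D, the phosphatase WIP1 that reverses damage signalling to p53, rose by 0.23 ± 0.05 (limma adjusted p = 0.00213), from 1028 ± 66.9 to 1209.8 ± 80.3 normalized counts (SD, n = 8 each).

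The 4 DNA repair genes had the highest median log2 fold change of the roles, 0.47, and 2 of them rose. That median includes RRM2B, whose log2 fold change of 0.81 did not pass, and the roles were not tested against each other. POLH encodes polymerase eta, which copies past ultraviolet lesions. Its normalized counts were 493, 696 and 794 at the lowest, median and highest in control and 888, 1034 and 1327 after HCF-1 siRNA. No library of one group reached the range of the other. This gave a log2 fold change of 0.66 ± 0.10 (SE; limma adjusted p = 7.26e-05). XPC, the damage sensor of global genome nucleotide excision repair, rose by 0.27 ± 0.07 (limma adjusted p = 0.00881), and 30.4% of its GENCODE 29 exon bases lie opposite exons of other genes, LSM3 among them.

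DDB2, the partner of XPC in recognising ultraviolet damage and the target with an exact full p53 site at its start, did not pass. Its level was 2046 ± 75.9 normalized counts in control and 2108 ± 85.7 after HCF-1 siRNA (SD, n = 8 each), a log2 fold change of 0.04 with a 95% interval of -0.03 to 0.12 (limma adjusted p = 0.385). The log2 ratio of POLH to DDB2 went from -1.61 ± 0.23 to -0.99 ± 0.19 (SD, n = 8 each) without overlap between the groups.

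RRM2B, the p53-inducible small subunit of ribonucleotide reductase, had the largest fold change of all 31 targets and still did not pass. Control libraries held 558, 991 and 1825 normalized counts at the lowest, median and highest, and HCF-1 siRNA libraries 736, 1754 and 3998. The highest value was that of HCF-1 siRNA replicate 2, the lowest of that group was replicate 1, and the groups overlapped widely. The log2 fold change was 0.81 with a 95% interval of 0.13 to 1.48 (limma adjusted p = 0.0572). Its coefficient of variation was 39.9% in control and 51.8% in HCF-1 siRNA libraries, where the medians over the 31 targets were 9.11% and 10.8%. Among the 7921 genes with a mean of 500 or more, 0.631% varied as much as RRM2B over the control libraries. RRM2B passed without control replicate 5 (limma adjusted p = 0.0320), without replicate 1 (0.0150) or 3 (0.0306) of HCF-1 siRNA, and with edgeR (adjusted p = 0.0392) or DESeq2 (adjusted p = 0.0239) on recovered reads.

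**Figure D2:**
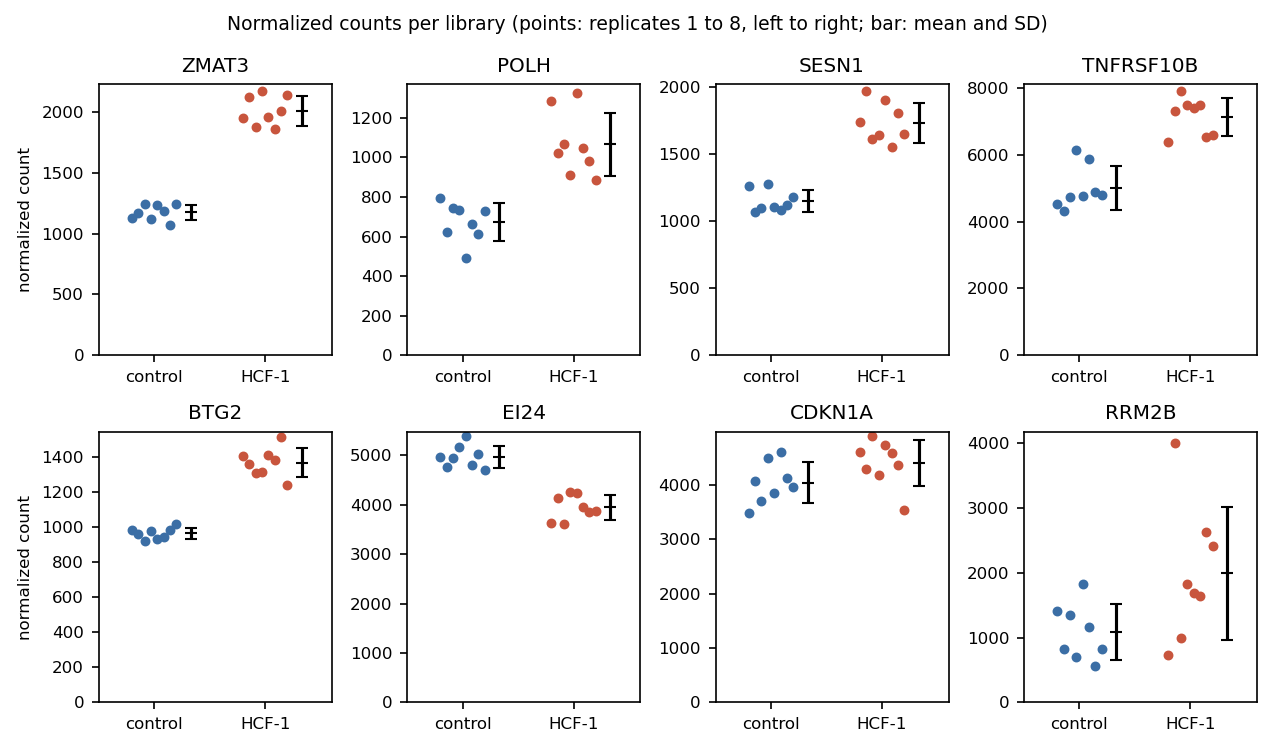
Normalized counts (vertical axis, from 0) of 8 p53 target genes in each library, with 8 points for control siRNA and 8 for HCF-1 siRNA, and a bar for the mean and SD of each group. ZMAT3, POLH, SESN1, TNFRSF10B and BTG2 are higher in every HCF-1 siRNA library and EI24 is lower in every one, whereas the groups overlap for CDKN1A and for RRM2B, which runs from 558 to 3998.

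All 3 death receptor genes had positive fold changes, and 2 rose. TNFRSF10B encodes DR5, a receptor for the death ligand TRAIL. Its normalized counts were 4326, 4781 and 6143 at the lowest, median and highest in control and 6383, 7353 and 7928 after HCF-1 siRNA. The lowest HCF-1 siRNA library lay just above the highest control library. This gave a log2 fold change of 0.52 ± 0.07 (SE; limma adjusted p = 2.09e-05).

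FAS, the receptor for Fas ligand, was much less abundant. It held 276, 349 and 409.99 normalized counts at the lowest, median and highest in control and 338, 450.5 and 521 after HCF-1 siRNA. The groups overlapped between the lower HCF-1 siRNA and the upper control libraries. FAS rose by 0.32 ± 0.10 (log2, SE; limma adjusted p = 0.0174).

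TNFRSF10A, the gene of the other TRAIL death receptor DR4, did not pass at 212 ± 52.8 against 272 ± 52.9 normalized counts (SD, n = 8 each), a log2 fold change of 0.38 with a 95% interval of 0.06 to 0.71 (limma adjusted p = 0.0618). In the same test it passed with replicate 8 of HCF-1 siRNA left out, at a log2 fold change of 0.44 (limma adjusted p = 0.0334). It also passed without control replicate 3 (limma adjusted p = 0.0447) or 6 (0.0296), and on thinned reads (0.0481). Of its GENCODE 29 exon bases, 16.6% lie opposite exons of other genes.

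Among the 9 apoptosis genes, 1 rose, 2 fell and 6 missed the threshold (median log2 fold change -0.01). Across all genes tested 18.2% rose and 18.3% fell, and this role was not tested against those shares. BBC3, which encodes the BH3-only protein PUMA, rose by 0.30 ± 0.07 (log2, SE; limma adjusted p = 0.00303), from 553 ± 30.1 to 684 ± 81.3 normalized counts (SD, n = 8 each). No test was made of the difference between this role and the others.

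EI24, also known as PIG8, encodes an endoplasmic reticulum protein of p53-induced apoptosis and autophagy, and fell without overlap. Its normalized counts were 4698, 4951 and 5387 at the lowest, median and highest in control and 3616, 3909 and 4266 after HCF-1 siRNA. All 8 HCF-1 siRNA libraries lay below the control range, which held for 1 of the 31 targets and 5.23% of all genes tested. EI24 fell by 0.33 ± 0.04 on the log2 scale (SE; limma adjusted p = 9.93e-06). PERP, a tetraspan membrane protein of p53-dependent apoptosis and of desmosomes, fell from 4699.7 ± 293 to 4105 ± 164 normalized counts (SD, n = 8 each), a log2 fold change of -0.19 ± 0.04 (SE; limma adjusted p = 0.00125).

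BAX, the pore-forming effector of the mitochondrial route, held 3489, 3948 and 4183 normalized counts at the lowest, median and highest in control and 3896, 4049.6 and 5246 after HCF-1 siRNA. The upper part of the HCF-1 siRNA group lay above the control range and the rest within it. Its log2 fold change was 0.12 with a 95% interval of -0.01 to 0.25 (limma adjusted p = 0.126), and it passed in none of the 26 settings. The log2 ratio of BBC3 to EI24 went from -3.17 ± 0.10 to -2.53 ± 0.19 (SD, n = 8 each) without overlap.

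The other 5 apoptosis genes did not pass either. AEN, an apoptosis-linked nuclease, had a log2 fold change of 0.08 with an interval of -0.01 to 0.18 (limma adjusted p = 0.148), and passed only without HCF-1 siRNA replicate 8, at 0.11 (adjusted p = 0.0332). PHLDA3, an inhibitor of AKT signalling that shares 19.1% of its GENCODE 29 exon bases with another gene on the same strand, stood at 0.01 (interval -0.13 to 0.16). TRIAP1, a mitochondrial lipid transfer protein that restrains apoptosis, stood at -0.01 (interval -0.09 to 0.07). CYFIP2, a subunit of the WAVE actin regulator, stood at -0.06 (interval -0.23 to 0.10). PMAIP1, which encodes the BH3-only protein NOXA, was the least abundant target at 72 ± 9.91 and 68.7 ± 11.3 normalized counts (SD, n = 8 each), a log2 fold change of -0.07 with an interval of -0.33 to 0.19.

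Of the 6 metabolic and stress genes, 3 rose and 3 did not pass, and their median log2 fold change was 0.23. SESN1 encodes sestrin 1, an antioxidant protein that restrains mTORC1. Its normalized counts were 1072, 1112 and 1274 at the lowest, median and highest in control and 1549, 1693 and 1974 after HCF-1 siRNA. The groups were separated by more than the whole control range. This gave a log2 fold change of 0.59 ± 0.06 (SE; limma adjusted p = 7.02e-07). ZMAT3, POLH and SESN1 were the 3 targets that passed with at least a 1.5-fold rise, which 5.65% of all genes tested did.

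GDF15, a secreted stress cytokine of the TGF-beta family, held 3960.4, 4952 and 5452 normalized counts at the lowest, median and highest in control and 4887, 6830.1 and 8652 after HCF-1 siRNA. HCF-1 siRNA replicates 7 and 8 lay inside the control range and the other 6 above it. GDF15 rose by 0.43 ± 0.11 (log2, SE; limma adjusted p = 0.00555). SPATA18, also called MIEAP, a mitochondrial quality control protein, rose by 0.42 ± 0.11 (limma adjusted p = 0.00677), from 316 ± 55.6 to 419.6 ± 55.2 normalized counts (SD, n = 8 each).

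TP53I3, the quinone oxidoreductase PIG3, had a negative log2 fold change of -0.16 that did not pass, with a 95% interval of -0.33 to 0.00 (limma adjusted p = 0.110). Relative to it, the log2 ratio of SESN1 went from 0.25 ± 0.20 to 1.01 ± 0.26 (SD, n = 8 each) without overlap. FDXR, a mitochondrial reductase that supplies electrons for iron-sulphur and steroid metabolism, stood at 0.04 (interval -0.11 to 0.19). TP53INP1, an autophagy and stress protein, stood at -0.03 (interval -0.26 to 0.21), with a coefficient of variation of 7.70% in control and 23.5% in HCF-1 siRNA libraries.

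**Figure D3:**
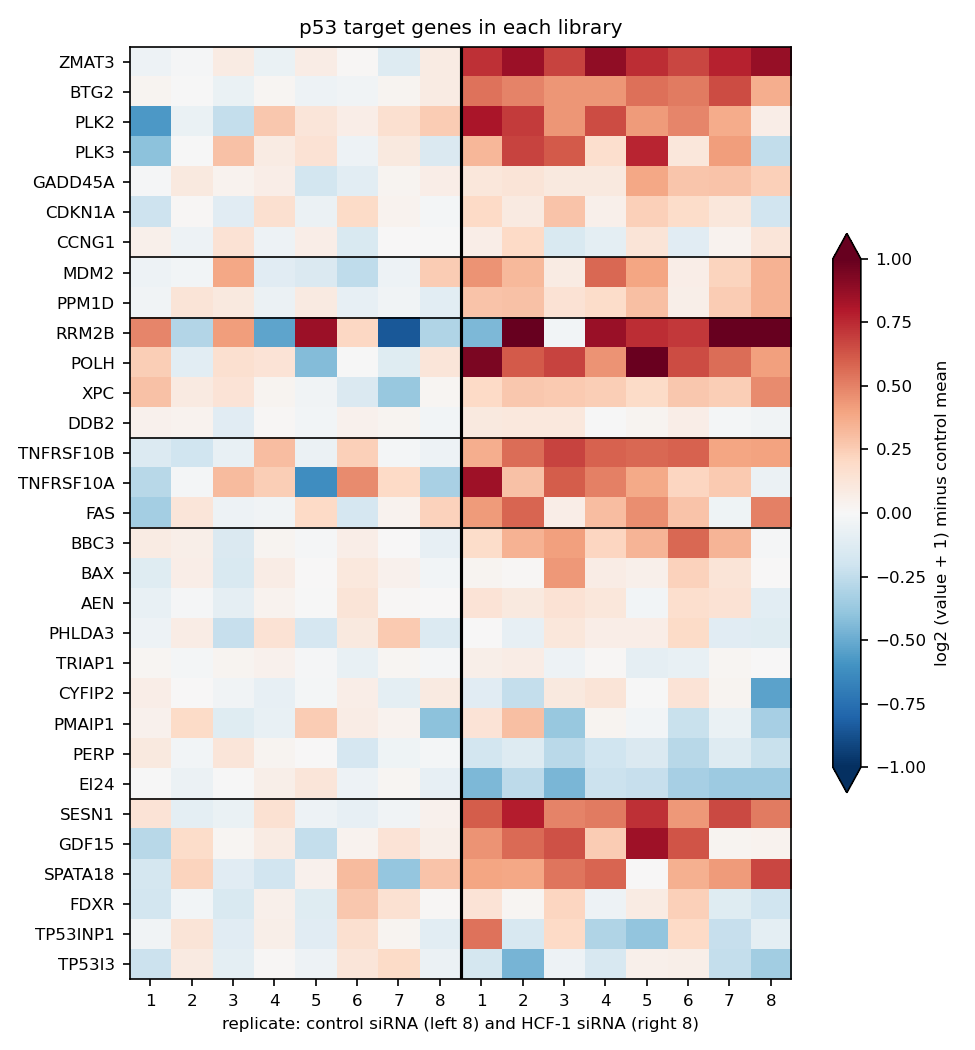
Each of the 31 p53 target genes (one line per gene, grouped by role between black lines) in each of the 16 libraries, coloured by log2(normalized count + 1) minus the control mean, with red for higher and blue for lower. Colours saturate at 1 and -1. Replicate 8 of HCF-1 siRNA mixes red and blue (median 0.01, against 0.14 to 0.29 in the other 7), with ZMAT3 and XPC red and CDKN1A and CYFIP2 blue, and RRM2B holds red and blue libraries in both groups.

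Compared per length, as normalized counts per kilobase of exon in GENCODE 29, the targets covered a wide range of levels in control cells. GDF15 was the highest at 2315, above every control value of CCNG1, the next gene at 1572. BAX (1503), EI24 (1396), CDKN1A (1326), PERP (1095.5), FDXR (1037) and TNFRSF10B (970.5) followed, each overlapping its neighbour in the order. TRIAP1 stood at 883, above AEN at 682, which stood above PHLDA3 at 515. Of the 30 pairs of neighbours in the order, 24 overlapped over the control libraries and 6 did not. Besides the 3 pairs just named, the latter were BTG2 (349.9) above XPC (248), BBC3 (174) above ZMAT3 (122), and PLK3 (57.8) above PMAIP1 (32.2), the lowest. ZMAT3, POLH and SESN1 had levels of 122, 190.5 and 224 per kilobase in control, in the lower part of the order.

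**Figure D4:**
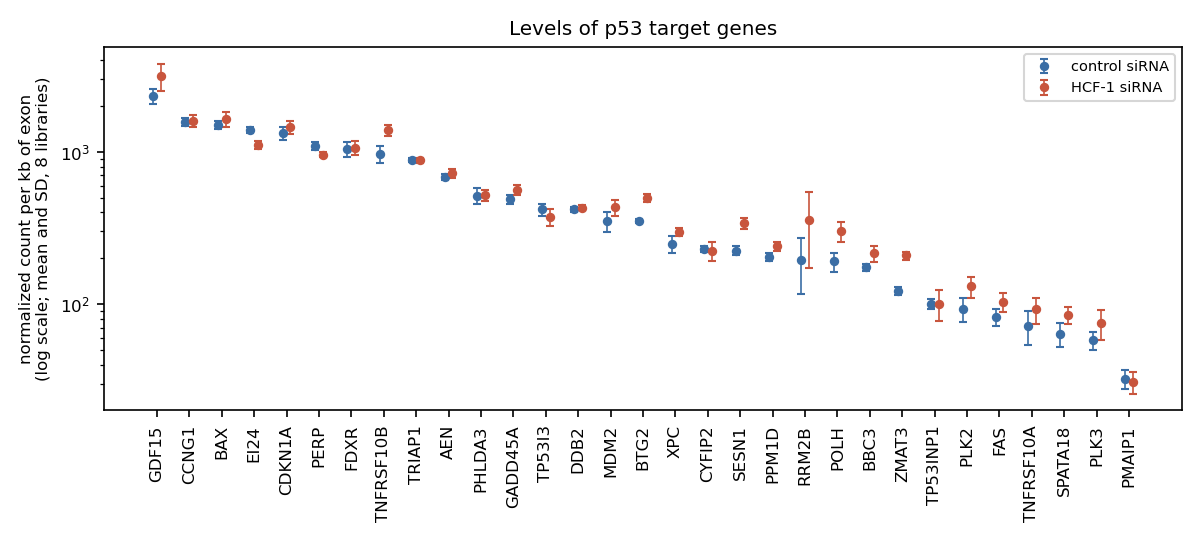
Level of each p53 target gene as normalized counts per kilobase of exon (vertical axis, log scale; mean and SD of 8 libraries per group), ordered by the control level from GDF15 at 2315 to PMAIP1 at 32.2. The HCF-1 siRNA points sit clearly above the control points for TNFRSF10B, BTG2, SESN1, POLH and ZMAT3, and below them for EI24.

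MDM4, the p53-binding paralogue of MDM2, rose from 306 ± 58.3 to 471 ± 64.1 normalized counts (SD, n = 8 each), a log2 fold change of 0.63 ± 0.12 (SE; limma adjusted p = 3.75e-04).

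Among 30 measured genes of p53 and its regulators, 7 rose, 4 fell and 19 missed the threshold (median log2 fold change 0.05). Across all genes tested 18.2% rose and 18.3% fell. Those shares are the background for this list and the lists that follow, and no list was tested against them. Leaving out control replicate 1 or HCF-1 siRNA replicate 4 or 8 brought the 4 that fell to 2. HIPK2, a kinase that phosphorylates p53, rose by 0.37 ± 0.04 (limma adjusted p = 7.38e-07). CDKN2A, the locus of the MDM2 inhibitor ARF and of p16, fell by 0.59 ± 0.11 on the log2 scale (limma adjusted p = 3.20e-04), and TP73, a p53 paralogue, fell by 0.43 ± 0.10 (limma adjusted p = 0.00275).

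Of 40 measured further p53 targets, 11 rose, 4 fell and 25 missed the threshold (median 0.07). TNFRSF10D, a decoy receptor for TRAIL, rose without overlap between the groups from 1108 ± 47.6 to 1883 ± 87.0 normalized counts (SD, n = 8 each), by 0.76 ± 0.04 on the log2 scale (limma adjusted p = 1.03e-09). IGFBP3, which binds insulin-like growth factors, rose by 0.62 ± 0.15 (limma adjusted p = 0.00371), and the ubiquitin ligase gene TRIM22 rose by 0.53 ± 0.17 (limma adjusted p = 0.0173). SFN, the cell-cycle inhibitor 14-3-3 sigma, fell by 0.56 ± 0.07 (limma adjusted p = 8.55e-06).

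The 20 genes repressed through p21 and DREAM went both ways, with 5 higher, 7 lower and 8 not passing, and a median of -0.04. Only 2 were higher when control replicate 6 or 7 or HCF-1 siRNA replicate 8 was left out, and 3 when control replicate 5 or HCF-1 siRNA replicate 1 or 5 was. MYBL2, a transcription factor of proliferating cells, fell by 0.46 ± 0.04 (limma adjusted p = 6.60e-07), and MCM5, a subunit of the replicative helicase, fell by 0.35 ± 0.05 (limma adjusted p = 6.76e-05). BUB1B, a spindle checkpoint kinase gene, rose by 0.25 ± 0.05 (limma adjusted p = 0.00101). TOP2A, a DNA topoisomerase gene, rose by 0.27 ± 0.09 (limma adjusted p = 0.0255), and that call was lost with no filter on low values and when control replicate 6 or 7 or HCF-1 siRNA replicate 8 was left out (adjusted p up to 0.0724).

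Of 23 measured G1 cyclins, kinases, their inhibitors, RB and DREAM subunits, 4 rose, 5 fell and 14 missed the threshold (median -0.09). Leaving out control replicate 6 or HCF-1 siRNA replicate 8 brought the 4 that rose to 2. CCND3, the gene of cyclin D3, fell from 451 ± 77.1 to 267 ± 52.6 normalized counts (SD, n = 8 each), by 0.76 ± 0.12 on the log2 scale (limma adjusted p = 1.36e-04), while CDK6, a kinase that D-type cyclins activate, rose by 0.40 ± 0.05 (limma adjusted p = 8.74e-06). TFDP1, the dimer partner of E2F, fell by 0.26 ± 0.03 (limma adjusted p = 1.47e-05). LIN54, the DREAM subunit that binds the CHR element, rose by 0.32 ± 0.11 (limma adjusted p = 0.0331), a call lost in 9 of 26 settings, among them those leaving out control replicate 2, 6 or 7 or 1 of replicates 1, 2, 4 and 8 of HCF-1 siRNA (adjusted p up to 0.0673).

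The partners of the apoptosis targets included 4 genes that rose and 7 that fell among 29 measured, with 18 not passing and a median of -0.01. BAD, a BH3-only gene, fell from 535 ± 45.7 to 352 ± 80.7 normalized counts (SD, n = 8 each), by 0.64 ± 0.13 on the log2 scale (limma adjusted p = 8.95e-04). CASP9, the initiator caspase of the mitochondrial route, fell by 0.59 ± 0.12 (limma adjusted p = 0.00109), and BAK1, the pore-forming relative of BAX, fell by 0.44 ± 0.06 (limma adjusted p = 2.39e-05). TNFSF10, the gene of TRAIL, rose by 0.41 ± 0.13 (limma adjusted p = 0.0167).

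Of 24 measured partners of the repair targets, in excision repair, bypass synthesis and ribonucleotide reduction, 3 rose, 7 fell and 14 missed the threshold (median -0.07). REV3L, the catalytic subunit of bypass polymerase zeta, rose from 1330.3 ± 322 to 2245 ± 733 normalized counts (SD, n = 8 each), by 0.73 ± 0.19 on the log2 scale (limma adjusted p = 0.00544). REV1, a bypass polymerase that polymerase eta binds, rose by 0.55 ± 0.07 (limma adjusted p = 9.12e-06). MAD2L2, the REV7 subunit of polymerase zeta, fell by 0.42 ± 0.05 (limma adjusted p = 3.37e-06), and RPA3, a subunit of the single-strand binding protein RPA, fell by 0.48 ± 0.09 (limma adjusted p = 6.48e-04).

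**Figure D5:**
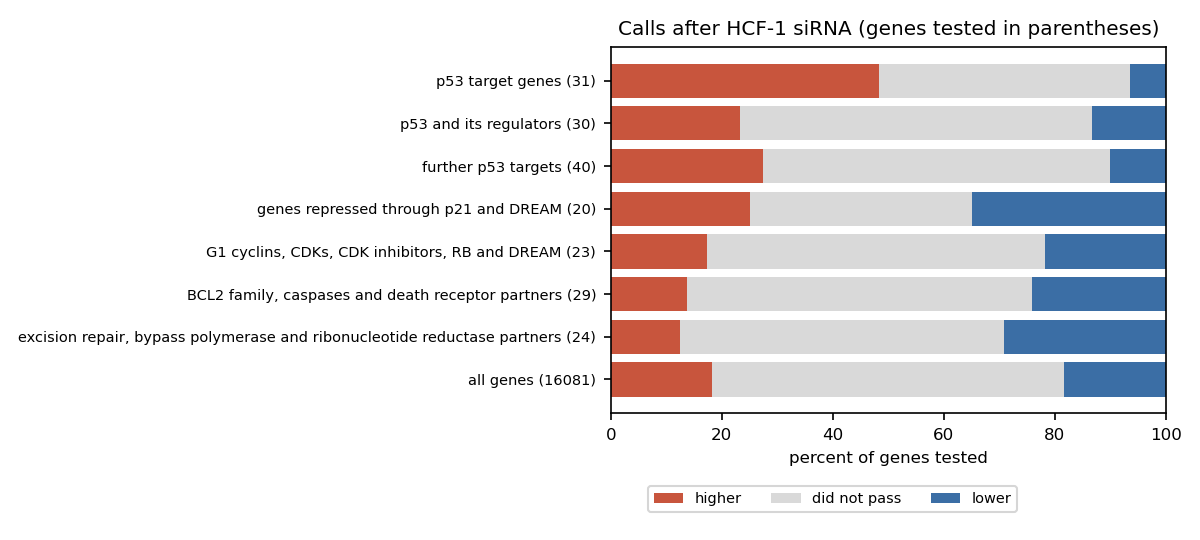
Percent of genes tested that were higher (red), did not pass (grey) or were lower (blue) after HCF-1 siRNA, for the 31 p53 target genes, 6 other lists of the pathway and all 16081 genes tested. The red part is 15 of 31 for the targets, 11 of 40 for the further p53 targets and 18.2% for all genes.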

How the data were processed

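RNA of 16 HepG2 cultures was made into mRNA libraries with a strand-marking kit, per the labels' protocols. The unit of the table that the authors deposited is a normalized count, a signal value for each gene in each library, and the submitters' processing notes name cutadapt 1.4.2, STAR 2.4.1d, featureCounts 1.4.4, DESeq2 1.16.1 and build hg19. Neither notes nor labels name the annotation release or the strand setting. Within a library every deposited value divided evenly by 1 constant (100% of values, to within 0.001 read), which returned whole reads. No 2 libraries of the same group agreed within sampling noise.

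With R 4.3.3, limma 3.58.1 (eBayes, trended and robust) compared 8 with 8 libraries on log2(normalized count + 1), keeping genes whose mean was at least 10. With a pseudocount of 1, changes of weakly expressed genes are understated. Benjamini-Hochberg adjustment ran over all 16081 genes tested. The fit was tested on simulated data, where it missed most of the smallest changes. A gene that did not pass is therefore not shown to be unchanged. p-values measure the spread between these cultures of 1 cell line.

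The 31 targets were all reported. MDM4, HCFC1 and, from each of 6 other lists (170 genes, 5 matched by Ensembl identifier because the table holds an older symbol), the 4 called genes of largest change with a mean of at least 50 in either group were named. The lowest, median and highest values per group are given for targets that passed without overlap and for CDKN1A, MDM2, BAX, GDF15 and FAS. They are also given for RRM2B, picked after its values were seen. A gene that this rule selects is not reported here. Members and lists were chosen with earlier results of these data known. Each gene has 1 role although several act in more than one.

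Alternatives were pseudocounts of 0.5 and 10, no filter, a minimum mean of 50, scaling by upper quartile or by total count, edgeR 4.0.16 and DESeq2 1.42.0 on recovered reads, a replicate block, and the removal of single libraries. Thinned reads were added after seeing the data. The unthinned recovered reads gave 5853 called genes with edgeR, 6258 with DESeq2. Exon lengths and overlaps came from GENCODE 29 on GRCh38, another build than the counts. Of the 31 targets, 18 share no exon base with another gene there.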

Additional observations from a re-analysis of the deposited data

Results flagged for a closer look

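XPC in HCF-1 siRNA replicate 8 stood at 1640 normalized counts, where the other 7 libraries of the group lay between 1345 and 1423. The gap to its nearest neighbour was 0.734 of the whole range, above the limit of Dixon's test for 8 values. In 70 groups of values looked at in this way, 1 passed the limit, and chance alone passes about 1 in 20 groups. Without that library XPC still rose, as it did in all 26 alternative settings.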

How the results depend on the processing

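Over the 26 alternative settings, 14 to 18 of the 31 p53 targets rose and 2 fell in each, and the median log2 fold change ran from 0.21 to 0.26. Of the 17 targets that passed, 16 did so in all 26 settings, PLK3 being the exception, and 10 of the 14 others passed in none. Leaving out HCF-1 siRNA replicate 8 gave 2 apoptosis genes higher in place of 1 (1 to 2 over single libraries left out). Genes of p53 regulation called lower numbered 2 in place of 4 with no filter, and 2 to 4 with a library left out. Genes repressed through p21 and DREAM called higher numbered 2 in place of 5 with no filter, 3 with upper-quartile scaling, 3 with total-count scaling and 2 to 5 with a library left out, and those called lower 4 in place of 7 with no filter. G1 genes called higher numbered 1 in place of 4 with no filter, 2 with total-count scaling and 2 to 4 with a library left out. The cause of these moves was not tested.

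Among the targets, 5 changed sign in some setting, none of which passed in any. PHLDA3 was -0.000445 with upper-quartile scaling, -0.0145 with total-count scaling and as low as -0.0189 with a library left out (up to 0.0509). CCNG1 was -0.00538 with total-count scaling and -0.00175 to 0.0481 with a library left out. TP53INP1 was 0.00297 with DESeq2 and -0.111 to 0.0234 with a library left out, TRIAP1 -0.0353 to 0.00499 and CYFIP2 -0.0920 to 0.00386.

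Libraries with the same replicate number did not deviate strongly together (correlations of -0.130 to 0.138 over 12729 genes), and the main fit left them unpaired. Low correlations cannot exclude that libraries of equal number were handled together. With the replicate block, 15 targets rose and 2 fell with a median of 0.23, 3 genes repressed through p21 and DREAM rose in place of 5, and 5484 genes were called in all against 5879. Depth is lowest for PMAIP1, at a mean of 70.3 normalized counts.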

Other observations

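Further partners of the repair targets, chosen after their values were seen, moved in both directions. RRM2, the cell-cycle-regulated small subunit of ribonucleotide reductase that RRM2B can replace, fell without overlap from 9619 ± 269.8 to 8168 ± 294 normalized counts (SD, n = 8 each), a log2 fold change of -0.24 ± 0.03 (SE; limma adjusted p = 6.92e-06). RRM1, the large subunit shared by both forms, fell by 0.27 ± 0.05 on the log2 scale (limma adjusted p = 8.71e-04). POLK, another bypass polymerase gene, rose by 0.38 ± 0.09 (limma adjusted p = 0.00362), and ERCC1, a subunit of an excision repair nuclease, fell by 0.38 ± 0.07 (limma adjusted p = 5.18e-04).

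Further apoptosis partners, chosen in the same way, included MCL1, an antiapoptotic BCL2 relative, which rose without overlap by 0.17 ± 0.04 (limma adjusted p = 0.00205). DIABLO, which relieves caspase inhibition, fell without overlap by 0.23 ± 0.05 on the log2 scale (limma adjusted p = 0.00181). FADD, the adaptor of the death receptors, fell by 0.32 ± 0.09 (limma adjusted p = 0.0107). RPL5 and RPL11, ribosomal proteins that bind MDM2, rose without overlap by 0.19 ± 0.03 and 0.14 ± 0.02 (limma adjusted p = 8.29e-05 and 3.52e-04).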
